A study of Mus musculus with 12 samples.

Results

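The dual-specificity MAP kinase phosphatases are a small family of enzymes that switch off the MAP kinases ERK, JNK and p38 by removing phosphate from both the threonine and the tyrosine of their activation loop. The genes described here are Dusp1, Dusp2, Dusp4, Dusp5, Dusp6, Dusp7, Dusp8, Dusp10 and Dusp16. They were taken by name, whatever their level, and are 9 of the 55401 genes of the count table. All 9 passed the filter on low expression and are among the 14079 genes that were tested. Dusp2 and Dusp4 did so only through the libraries of a single line, as given below. The family also holds Dusp9, which was not one of them and is described beside its closest relatives, Dusp6 and Dusp7.

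As background, MAP kinases carry the signal of Toll-like receptors in dendritic cells, and lipopolysaccharide (LPS) activates ERK, JNK and p38. Many of the phosphatases are themselves induced by MAP kinase signaling, so that they act as negative feedback. The family is commonly ordered by location and substrate. Dusp1, Dusp2, Dusp4 and Dusp5 encode inducible nuclear enzymes, Dusp6, Dusp7 and Dusp9 encode cytoplasmic enzymes that prefer ERK, and Dusp8, Dusp10 and Dusp16 encode enzymes that prefer JNK and p38.

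RNA was sequenced from Sp37A3 cells, an immature dendritic cell line from the spleen of C57BL/6 mice that was kept in medium with GM-CSF and M-CSF. CtrV cells were transduced with an empty lentiviral CRISPR/Cas9 vector, and EKO cells with the same vector carrying a guide against Siglece, the gene of the inhibitory receptor Siglec-E, after which several single clones were pooled. Each line was either left unpulsed or pulsed with 0.1 mg/ml ovalbumin (OVA) for 2 h. All cells were then stimulated with LPS for 24 h before RNA was taken. The LPS dose was 0.1 ug/ml in the OVA-pulsed cells and is not stated for the unpulsed cells. The 4 groups, CtrV unpulsed, CtrV OVA, EKO unpulsed and EKO OVA, had 3 libraries each, and no group without LPS was sequenced. Because each line is 1 population of cells, with the EKO line pooled from clones, the libraries measure the spread between samples of these lines, and the line, its clones and the loss of Siglec-E cannot be told apart.

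The libraries held between 27116201 and 39698572 counts, so that a level of 3 counts corresponded to between 0.0785 and 0.11 CPM. CPM are counts scaled to a common library size, here by the trimmed mean of M values (TMM). Fold changes come from the quasi-likelihood model of edgeR, with p adjusted by Benjamini-Hochberg over the 14079 genes and a call at an adjusted p under 0.05. Siglece mRNA was not lower in the libraries labelled EKO. By edgeR it was called higher there, 1.24-fold with OVA (adjusted p = 0.0106) and 1.33-fold without (adjusted p = 0.00261). It was at 150 to 163 CPM in the 6 CtrV libraries and at 166 to 235 CPM in the 6 EKO libraries. The paper reports that the pooled clones had little or no Siglec-E expression, and mRNA counts do not measure the protein. The counts can thus not check the label, and the line is called EKO-labelled below. Dendritic cell markers were detected in all groups (8 of 8 tested, summed level of 19700 to 22700 CPM), but the sum was mostly Cd74, with group means of 15500 to 17300 CPM, and single markers differed between the lines. After OVA, Flt3 was 3.34-fold, Batf3 3.19-fold, Irf8 2.54-fold, H2-Ab1 1.43-fold and Ptprc 1.25-fold higher in EKO-labelled cells, Itgax was at 0.828 of the CtrV level, and Cd74 and Zbtb46 were not called. The 4 macrophage markers summed to 1220 to 1390 CPM in CtrV and to 1530 to 1590 CPM in EKO-labelled cells. Csf1r had group means of 608 and 616 CPM in CtrV and 863 and 899 CPM in EKO-labelled cells. Cd68 was at 29.2 and 29 against 42.1 and 38.5 CPM. The group means of Adgre1 lay at 634 to 647 CPM and those of Mertk at 2.23 to 2.84 CPM. Of 3 epithelial markers, Cdh1 was at 551 to 636 CPM in CtrV and at 152 to 182 CPM in EKO-labelled cells, Epcam was at 20.8 to 33 CPM across all libraries, and Krt8 did not exceed 0.0332 CPM. Markers of T, B and NK cells, fibroblasts and erythroid cells, summed for each cell type alone, reached at most 1.07 CPM in any library. The B cell sum was 0.0358 to 0.212 CPM in CtrV and 0.45 to 1.07 CPM in EKO-labelled libraries. The T cell sum was 0.0302 to 0.141 against 0.183 to 0.642 CPM, and the NK cell sums of the lines overlapped. Both EKO-labelled libraries of replicate 1 lay apart from the other 4 on the second principal component, which held 7.11% of the variance. In bulk libraries, fewer cells of a type and less RNA per cell cannot be told apart. The part of these differences in the results below was not tested, except where values without replicate 1 are given.

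Promoter windows of 300 bases, from 250 bases before to 50 bases after the annotated start, were read from RefSeq (GRCm38.p6) for the 8 members with an entry, all but Dusp4. The 4 windows below are shown because they hold, or lack, the matches to short motifs that are bound by factors downstream of MAP kinases. Of these genes, Dusp1 and Dusp8 rose and Dusp6 fell in EKO-labelled cells, while Dusp5 was not called, and Dusp2, Dusp10 and Dusp16, which also rose, have no CRE in their windows. Capitals mark TGACGTCA (the cAMP response element, CRE), CACGTG (the E-box) and the CArG box, the element bound by serum response factor. The windows lie at chr17:26508423-26508722 on the minus strand (Dusp1), chr7:142095235-142095534 on the minus strand (Dusp8), chr19:53528895-53529194 on the plus strand (Dusp5) and chr10:99262981-99263280 on the plus strand (Dusp6).
Dusp1: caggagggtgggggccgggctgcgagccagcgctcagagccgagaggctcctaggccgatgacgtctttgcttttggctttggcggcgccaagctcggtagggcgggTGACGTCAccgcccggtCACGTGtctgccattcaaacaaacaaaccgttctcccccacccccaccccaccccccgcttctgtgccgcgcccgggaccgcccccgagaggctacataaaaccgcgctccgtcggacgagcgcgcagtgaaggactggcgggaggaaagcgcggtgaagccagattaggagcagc
Dusp8: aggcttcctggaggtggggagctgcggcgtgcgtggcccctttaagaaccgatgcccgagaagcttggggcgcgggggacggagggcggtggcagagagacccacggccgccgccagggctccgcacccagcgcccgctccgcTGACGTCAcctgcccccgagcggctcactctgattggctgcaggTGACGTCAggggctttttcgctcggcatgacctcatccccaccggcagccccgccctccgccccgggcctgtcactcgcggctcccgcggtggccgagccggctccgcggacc
Dusp5: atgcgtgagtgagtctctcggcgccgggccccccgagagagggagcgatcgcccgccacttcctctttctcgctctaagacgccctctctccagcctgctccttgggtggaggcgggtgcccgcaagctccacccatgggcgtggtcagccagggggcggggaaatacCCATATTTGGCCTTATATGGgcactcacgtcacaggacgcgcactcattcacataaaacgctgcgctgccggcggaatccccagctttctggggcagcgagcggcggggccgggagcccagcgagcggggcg
Dusp6: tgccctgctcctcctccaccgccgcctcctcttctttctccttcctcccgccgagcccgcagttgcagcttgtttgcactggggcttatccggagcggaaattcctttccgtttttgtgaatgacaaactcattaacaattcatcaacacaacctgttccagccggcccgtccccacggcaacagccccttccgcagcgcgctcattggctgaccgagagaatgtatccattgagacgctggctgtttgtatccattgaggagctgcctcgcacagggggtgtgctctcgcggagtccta

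The CRE was found in 2 of the 8 windows and in 1.79% of all 32841 windows of this length. Its first base was at position -143 from the RefSeq start of Dusp1, and at -107 and -63 in Dusp8. Positions count from the RefSeq start. For Dusp1, Dusp8 and Dusp10 the window lies inside the gene coordinates given below, which come from another annotation. The E-box, present in 7.15% of all windows, began at -126 in Dusp1 and at -109 in Dusp2. The CArG box, present in 1.63% of all windows, was found in Dusp5 only among the members, at -82 and -72, as adjoining copies. The Dusp6 window held none of the motifs searched. The GC box GGGCGG was in the 7 other windows and in 35.7% of all windows, and shares bases with no CRE, E-box or CArG box of the windows shown. TGANTCA (AP-1, in 7.81% of all windows), GCGTGGGCG (EGR, in 0.612%) and the kappa-B motif (in 4.51%) were in none of the 8. All motifs were searched on both strands. The GC content of the windows ranged from 57.3% (Dusp6) to 78.7% (Dusp7), against a median of 52.7% over all windows. A match describes the letters of the window and is not evidence of binding.

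Between the lines, 8 of the 9 phosphatases differed in OVA-pulsed cells, 6 higher and 2 lower in EKO-labelled cells. In unpulsed cells 7 differed, 5 higher and 2 lower. This is to be read against a large difference between the lines as a whole, in which 47.0% of all tested genes were called in OVA-pulsed cells (25.1% higher and 21.9% lower) and 46.4% in unpulsed cells (24.5% higher and 21.9% lower). The libraries of the lines did not overlap for 7 members after OVA (5 higher, 2 lower) and for 6 without OVA (4 higher, 2 lower). Over all genes this share was 52.9% after OVA (27.0% higher, 25.9% lower) and 47.1% without (24.1% higher, 22.9% lower). Of the members counted as higher, Dusp2 and Dusp4 passed the filter on low expression only through EKO-labelled libraries. The median log2 fold change of the 9 was 1.21 in OVA-pulsed and 1.18 in unpulsed cells, and the median over all genes was 0.00 in both, with a median absolute log2 fold change of 0.209 in both. Dusp9, which is not counted here, was at -2.09 in OVA-pulsed and -2.64 in unpulsed cells, and adding it would lower both medians. Dusp6 and Dusp7, which prefer ERK, were the members that fell, while Dusp5, which is specific for ERK, was not called in either state. Dusp16, Dusp8, Dusp1 and Dusp2 were the members that rose in both pulsing states with no overlap between the lines.

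**Figure D1:**
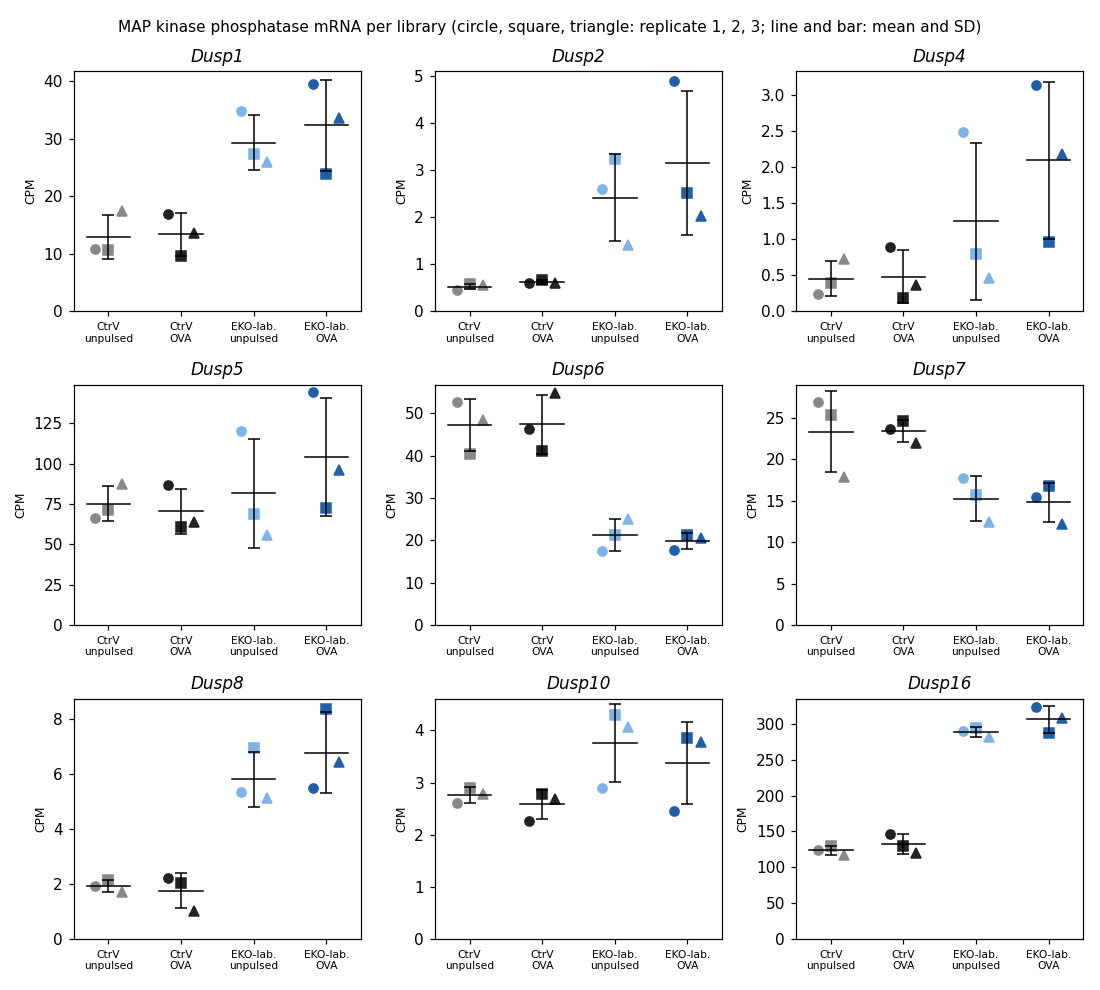
Level of each phosphatase in CPM (vertical axis, starting at 0) in each library of the 4 groups, with circle, square and triangle for replicates 1, 2 and 3, a horizontal line for the group mean and a bar for the SD (n = 3). Dusp16 was at 117 to 147 CPM in CtrV and at 281 to 324 CPM in EKO-labelled libraries, whereas Dusp6 was at 40.5 to 54.9 CPM in CtrV and at 17.5 to 25 CPM in EKO-labelled libraries.

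Dusp1 (ENSMUSG00000024190, chr17:26505590-26562128, minus strand, GRCm38) encodes the nuclear phosphatase that restrains p38 and JNK after LPS in macrophages and dendritic cells. Its level in replicates 1, 2 and 3 was 10.8, 10.7 and 17.4 CPM in CtrV unpulsed and 16.9, 9.55 and 13.7 CPM in CtrV OVA cells. In EKO-labelled cells it was 34.8, 27.4 and 25.9 CPM unpulsed and 39.6, 23.9 and 33.6 CPM after OVA. All 6 EKO-labelled libraries were thus above all 6 CtrV libraries. The difference was 2.43-fold in OVA-pulsed cells (log2 fold change 1.28, SE 0.181, adjusted p = 0.000211, edgeR) and 2.27-fold in unpulsed cells (1.18, SE 0.186, adjusted p = 0.000449).

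Dusp2 (ENSMUSG00000027368, chr2:127336159-127338376, plus strand) encodes a nuclear phosphatase of activated leukocytes and was among the least abundant members. CtrV libraries held 0.458, 0.573 and 0.55 CPM unpulsed and 0.594, 0.665 and 0.597 CPM after OVA. EKO-labelled libraries held 2.6, 3.23 and 1.41 CPM unpulsed and 4.89, 2.51 and 2.03 CPM after OVA. The lines did not overlap, while the EKO-labelled libraries differed among themselves by more than the CtrV libraries did, with an SD of 1.53 against 0.0399 CPM after OVA. The rise was the largest of the 9 in fold terms, 5.06-fold with OVA (95% interval 3.14 to 8.16, adjusted p = 0.000133) and 4.49-fold without (2.63 to 7.67, adjusted p = 0.00052). No CtrV library reached the filter's limit on low expression. Dusp2 was thus tested only because of its level in EKO-labelled cells, and its rise is not independent of the filter.

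Dusp4 (ENSMUSG00000031530, chr8:34807297-34819894, plus strand), which encodes another inducible nuclear phosphatase, was the member measured from the fewest reads, between 6 and 120 per library. It was at 0.247, 0.394 and 0.721 CPM in CtrV unpulsed, 0.892, 0.181 and 0.365 CPM in CtrV OVA, 2.49, 0.792 and 0.459 CPM in EKO-labelled unpulsed and 3.14, 0.965 and 2.18 CPM in EKO-labelled OVA libraries. After OVA the lines did not overlap, and Dusp4 was 4.36-fold higher in EKO-labelled cells (95% interval 2.1 to 9.05, adjusted p = 0.00395). As with Dusp2, no CtrV library reached the filter's limit, so Dusp4 was tested only through EKO-labelled libraries. In unpulsed cells the lines overlapped and the value of 2.51-fold did not pass the test (95% interval 1.07 to 5.91, adjusted p = 0.0732). The unpulsed value depended on single libraries. It passed the test without CtrV unpulsed replicate 3 (log2 fold change 2.00, adjusted p = 0.0344) or without EKO-labelled unpulsed replicate 3 (1.86, adjusted p = 0.0106), and was at 0.46 without CtrV unpulsed replicate 1.

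Dusp5 (ENSMUSG00000034765, chr19:53529109-53542431, plus strand) encodes a nuclear phosphatase specific for ERK. CtrV libraries held 66.5, 71.4 and 87.4 CPM unpulsed and 86.5, 61 and 63.9 CPM after OVA. EKO-labelled libraries held 120, 68.6 and 55.9 CPM unpulsed and 144, 72.3 and 96 CPM after OVA. The lines overlapped in both states, and the highest value of each EKO-labelled group came from replicate 1. No line difference was called, with 1.45-fold after OVA (95% interval 1.05 to 2.01, adjusted p = 0.0603) and 1.03-fold without OVA (0.736 to 1.43, adjusted p = 0.907). The OVA value lay close to the threshold and was called in 5 of the 12 fits that left out 1 library, those without CtrV unpulsed replicate 1 (adjusted p = 0.0072) or 3 (0.0429), EKO-labelled unpulsed replicate 1 (0.0369) or 3 (0.0359), or EKO-labelled OVA replicate 2 (0.0456). Without both EKO-labelled libraries of replicate 1 the unpulsed log2 value turned to -0.22. Of the exon bases of Dusp5, 22.1% lie opposite another annotated gene, AC137853.2, and the sources used here do not say if reads were assigned by strand.

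Dusp6 (ENSMUSG00000019960, chr10:99263231-99267489, plus strand), the best known cytoplasmic phosphatase of ERK and a classical transcriptional target of ERK signaling, moved the opposite way. It was at 52.7, 40.5 and 48.5 CPM in CtrV unpulsed and at 46.4, 41 and 54.9 CPM in CtrV OVA cells. In EKO-labelled cells it was at 17.5, 21.4 and 25 CPM unpulsed and at 17.8, 21.3 and 20.5 CPM after OVA. Every EKO-labelled library was below every CtrV library. Dusp6 fell to 0.421 of the CtrV level in OVA-pulsed cells (log2 fold change -1.25, SE 0.125, adjusted p = 1.78e-05) and to 0.45 in unpulsed cells (-1.15, SE 0.126, adjusted p = 3.61e-05).

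Dusp7 (ENSMUSG00000053716, chr9:106368632-106375724, plus strand), a close relative of Dusp6 that also prefers ERK, fell by less. CtrV libraries held 26.9, 25.3 and 17.8 CPM unpulsed and 23.6, 24.6 and 22 CPM after OVA, and EKO-labelled libraries held 17.7, 15.7 and 12.4 CPM unpulsed and 15.4, 16.8 and 12.2 CPM after OVA. The unpulsed groups were separated by little, since CtrV replicate 3 and EKO-labelled replicate 1 nearly met. The level in EKO-labelled cells was 0.628 of that in CtrV cells after OVA (log2 fold change -0.67, SE 0.09, adjusted p = 0.000143) and 0.655 without OVA (-0.61, SE 0.0912, adjusted p = 0.000318).

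The remaining cytoplasmic ERK phosphatase, Dusp9, is X-linked and was scarce. It was at 2.01, 2.08 and 2.82 CPM in CtrV unpulsed and 1.65, 1.63 and 1.92 CPM in CtrV OVA cells, against 0.275 to 0.429 CPM and 0.307 to 0.547 CPM in the EKO-labelled groups. Dusp9 passed the filter on low expression only through CtrV libraries. Its log2 fold change was -2.09 with OVA (SE 0.243, adjusted p = 5.32e-05) and -2.64 without (SE 0.249, adjusted p = 1.22e-05). Dusp6, Dusp7 and Dusp9 were thus each lower in EKO-labelled cells in both pulsing states.

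Dusp8 (ENSMUSG00000037887, chr7:142079490-142095843, minus strand) encodes a phosphatase of JNK and p38 and was low in CtrV cells. CtrV libraries held 1.94, 2.15 and 1.72 CPM unpulsed and 2.22, 2.02 and 1.03 CPM after OVA. EKO-labelled libraries held 5.35, 6.93 and 5.11 CPM unpulsed and 5.47, 8.36 and 6.43 CPM after OVA. The lowest EKO-labelled library was above the highest CtrV library by more than the whole range within CtrV. Dusp8 rose 3.78-fold with OVA (95% interval 2.85 to 5.01, adjusted p = 1.22e-05) and 2.99-fold without (2.23 to 4, adjusted p = 7.08e-05).

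Dusp10 (ENSMUSG00000039384, chr1:184013302-184075636, plus strand), also directed at JNK and p38, differed least among the members called. It was at 2.61, 2.9 and 2.78 CPM in CtrV unpulsed, 2.27, 2.78 and 2.69 CPM in CtrV OVA, 2.9, 4.29 and 4.07 CPM in EKO-labelled unpulsed and 2.46, 3.86 and 3.78 CPM in EKO-labelled OVA libraries. EKO-labelled replicate 1 reached into the CtrV range in both states. The rise was 1.29-fold with OVA (95% interval 1.07 to 1.56, adjusted p = 0.0296) and 1.35-fold without (1.12 to 1.63, adjusted p = 0.015). These calls are weak. In a fit with no replicate block the adjusted p was 0.142 with OVA and 0.091 without, and they were also lost on leaving out replicate 2 or replicate 3 of any compared group, with adjusted p up to 0.125 with OVA and 0.0733 without.

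Dusp16 (ENSMUSG00000030203, chr6:134715468-134792625, minus strand), a phosphatase of JNK and p38 that shuttles between cytoplasm and nucleus, had the most precise difference. CtrV libraries held 124, 130 and 117 CPM unpulsed and 147, 130 and 120 CPM after OVA. EKO-labelled libraries held 290, 294 and 281 CPM unpulsed and 324, 287 and 308 CPM after OVA. The SD of the 3 libraries was between 2.35% and 10.1% of the mean in the 4 groups, and the lines were far apart. The rise was 2.32-fold with OVA (95% interval 2.09 to 2.56, adjusted p = 2.23e-07) and 2.33-fold without (2.11 to 2.58, adjusted p = 2.4e-07). By its p value it ranked 190 of the 14079 genes with OVA and 166 without.

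**Figure D2:**
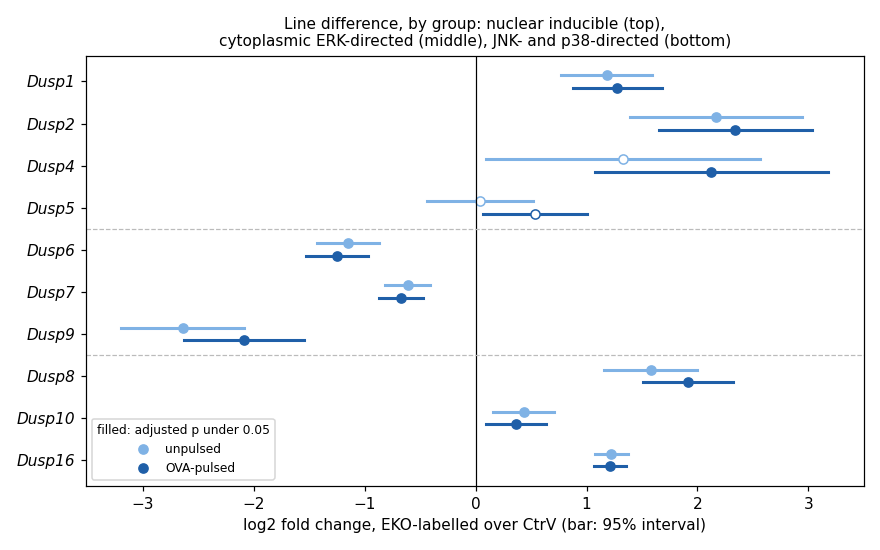
Log2 fold change of EKO-labelled over CtrV cells (horizontal axis) for each phosphatase, with its 95% interval as a bar, in unpulsed (light) and OVA-pulsed (dark) cells, filled where the adjusted p was under 0.05. Dusp6, Dusp7 and Dusp9 lie to the left of 0 and all others lie to the right or, for Dusp5 in unpulsed cells, at 0.04.

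The effect of OVA pulsing itself was examined within each line. None of the 9 was called in CtrV or in EKO-labelled cells by edgeR, and 0 of 9 had an unadjusted p under 0.05 in either. Across all genes, 0 of 14079 were called, which was also the count with DESeq2 and with limma voom, and the genes with an unadjusted p under 0.05 by edgeR numbered 231 in CtrV and 394 in EKO-labelled cells. In CtrV cells the members' log2 fold changes ran from -0.14 (Dusp5) to 0.20 (Dusp2). Dusp2 was the only member whose pulsed and unpulsed CtrV libraries did not overlap, against 4.37% of all genes (1.98% higher), and its 95% interval of -0.76 to 1.17 (log2) included 0. In EKO-labelled cells they ran from -0.16 (Dusp10) to 0.81 (Dusp4), no member's libraries were separated, against 4.90% of all genes (2.34% higher), and Dusp4 had the smallest unadjusted p of 0.077 and an adjusted p of 1. Changes of the size of the 95% intervals could have gone unseen. These spanned -0.06 to 0.23 for the well measured Dusp16 and -0.10 to 1.72 for Dusp4 on the log2 scale in EKO-labelled cells.

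The difference between the lines was also compared between pulsed and unpulsed cells by an interaction contrast. It was called for 0 of 9 members and 0 of 14079 genes (269 genes and no member at an unadjusted p under 0.05, and 0 called with DESeq2 or limma voom). For Dusp16 the interaction was -0.01 on the log2 scale (95% interval -0.22 to 0.20), for Dusp6 -0.10 (-0.49 to 0.29) and for Dusp1 0.10 (-0.48 to 0.67). Dusp4 and Dusp5 had the widest departures, 0.79 (-0.92 to 2.51) and 0.50 (-0.17 to 1.17). The call of Dusp4 with OVA and not without therefore does not show that its line difference depended on pulsing.

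To compare levels between genes, CPM were divided by the length of each gene's merged exons in kilobases. In CtrV cells Dusp5 was the most abundant phosphatase at 30.4 ± 4.41 CPM per kilobase unpulsed and 28.5 ± 5.65 after OVA (SD, n = 3). Dusp16 and Dusp6 followed and overlapped each other in both states, at 15.9 ± 0.854 and 15.1 ± 1.97 CPM per kilobase unpulsed. Dusp7, Dusp1 and Dusp10 came next, in this order and without overlap between neighbors, at 6.95, 3.92 and 0.909 CPM per kilobase unpulsed. Dusp8, Dusp2 and Dusp4 were lowest, between 0.166 and 0.397 CPM per kilobase unpulsed, with overlaps between Dusp2 and Dusp4 in both states and between Dusp8 and Dusp2 after OVA.

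In EKO-labelled cells the order was different at the top and in the middle. Dusp16 and Dusp5 overlapped in the first places, at 37 ± 0.869 and 33 ± 13.8 CPM per kilobase unpulsed and at 39.3 ± 2.35 and 42.1 ± 14.9 after OVA. Dusp1 came next at 8.87 ± 1.44 unpulsed and 9.78 ± 2.39 after OVA, above Dusp6 at 6.81 ± 1.2 and 6.34 ± 0.591, with overlap between them in unpulsed cells. Dusp7 followed Dusp6 without overlap. Dusp10, Dusp2 and Dusp8 lay close together between 1.11 and 1.57 CPM per kilobase with overlapping ranges. Dusp4 had the lowest mean, 0.456 unpulsed and 0.765 after OVA. Its range overlapped that of Dusp2 in unpulsed cells and those of Dusp10, Dusp2 and Dusp8 after OVA.

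**Figure D3:**
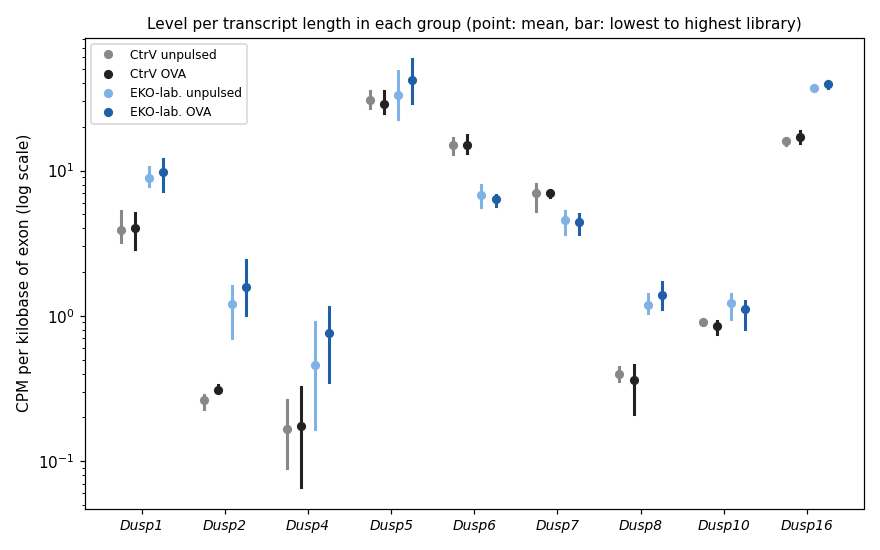
Level per kilobase of merged exon for each phosphatase (CPM per kilobase, log scale) in the 4 groups, with points for the mean and bars from the lowest to the highest of the 3 libraries. Dusp5 was above Dusp16 in both CtrV groups and overlapped it in both EKO-labelled groups, and Dusp1 was below Dusp6 in both CtrV groups.

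The same shift is seen in ratios taken within each library, which do not depend on how libraries were scaled. The ratio of Dusp16 to Dusp6 per kilobase was 0.944, 1.29 and 0.97 in CtrV unpulsed, 1.27, 1.27 and 0.88 in CtrV OVA, 6.65, 5.52 and 4.51 in EKO-labelled unpulsed and 7.31, 5.4 and 6.04 in EKO-labelled OVA libraries. Per kilobase of merged exon, the transcripts of this JNK and p38 phosphatase and of the ERK phosphatase were near parity in CtrV cells. On the same scale, Dusp16 exceeded Dusp6 by more than 4 times in all 6 EKO-labelled libraries. Parity depends on the merged exon lengths, 7798 bases for Dusp16 and 3132 for Dusp6. Before division by length, their means in CtrV unpulsed cells were 124 and 47.2 CPM. Dusp1 over Dusp6 lay between 0.194 and 0.344 in CtrV and between 0.979 and 2.11 in EKO-labelled libraries. Dusp5 over Dusp16 lay between 1.48 and 2.35 in CtrV and between 0.627 and 1.41 in EKO-labelled libraries.

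Within groups, some members varied together from library to library. Deviations of log2 CPM from the group mean, over the 12 libraries, correlated with r = 0.94 between Dusp4 and Dusp5, 0.90 between Dusp1 and Dusp4 and 0.80 between Dusp1 and Dusp5, and with r = -0.87 between Dusp5 and Dusp10. These values are descriptions, since the 12 deviations share group means and libraries. Replicate 1 of the EKO-labelled cells deviated in both states. It held 1.93 and 1.72 times the mean Dusp5 level of the other replicates in unpulsed and OVA-pulsed cells, 3.99 and 1.99 times the mean Dusp4 level, and 0.693 and 0.643 times the mean Dusp10 level. Replicate 1 of the CtrV OVA cells deviated in the same directions, with 1.45 times the mean of the other replicates for Dusp1, 3.27 times for Dusp4, 1.39 times for Dusp5 and 0.831 times for Dusp10. Replicate 1 of the CtrV unpulsed cells did so for Dusp10 only, with 0.766, 0.443, 0.838 and 0.918 times for the same genes, and there replicate 3 was the highest for Dusp1, Dusp4 and Dusp5.

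**Figure D4:**
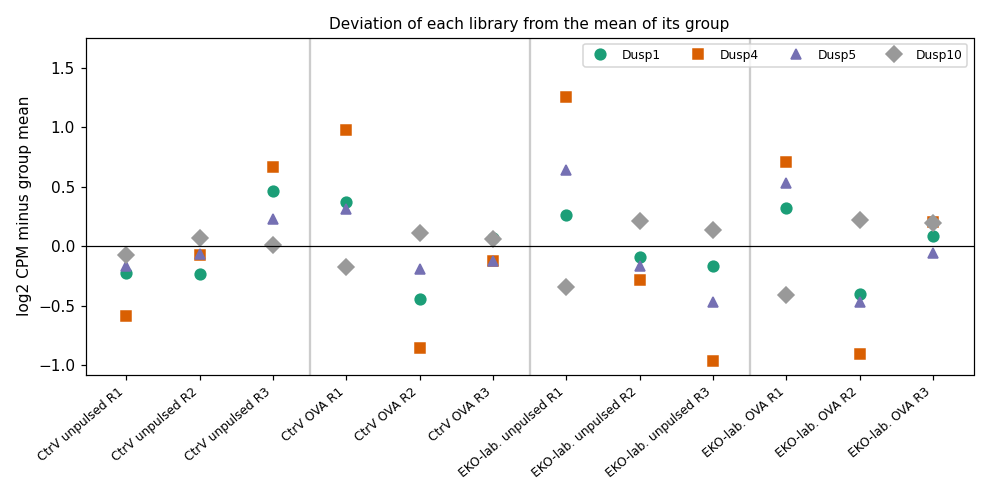
Deviation of log2 CPM from the mean of the library's own group (vertical axis) for Dusp1, Dusp4, Dusp5 and Dusp10 in each of the 12 libraries, with gray lines between groups. In both EKO-labelled groups and in CtrV OVA, replicate 1 (R1) has Dusp1, Dusp4 and Dusp5 above 0 and Dusp10 below 0, and in CtrV unpulsed it has all 4 genes below 0.

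Without both EKO-labelled libraries of replicate 1, Dusp1, Dusp2, Dusp6, Dusp7, Dusp8, Dusp10 and Dusp16 were called in the same direction in both states, and Dusp4 after OVA only. The count was then 8 of 9 with OVA and 7 of 9 without, as with all libraries. Without all 4 libraries of replicate 1, a setting added after the data had been seen, Dusp5 was called as well after OVA (log2 fold change 0.43, adjusted p = 0.0284), and its unpulsed value was -0.34 (adjusted p = 0.0693).

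The genes whose levels ran most closely with each member over the 12 libraries, among 12393 candidates, were taken as the 2 with the highest Pearson correlation of log2 CPM. For Dusp16 they were Specc1l and Itga5, an integrin subunit, both with r = 0.998. For Dusp6 they were Cd300lf, an inhibitory receptor of myeloid cells, and Arhgap9 (0.99 each). Dusp8 ran with Ptgs2, the inducible cyclooxygenase (0.986), and Acvr2a (0.982), and Dusp1 ran with Anxa7 (0.988) and Irf8, a transcription factor of dendritic cells (0.981). Dusp2 was closest to Itpkb (0.978) and Sbds (0.974), Dusp7 to Itpripl1 (0.984) and Zfp652 (0.983), Dusp4 to Plek2 (0.987) and Cacnb3 (0.983), Dusp5 to Tagln2 (0.978) and Anxa4 (0.973), and Dusp10 to Rbm39 (0.968) and Dcstamp (0.952). The 12 libraries form 2 lines far apart and share their line difference, so these values are descriptions and carry no p.

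The rest of the pathway was described from lists of genes by role. Of the MAP kinases, the substrates of these enzymes, 8 of 13 were tested, with 2 higher and 2 lower in the EKO-labelled line after OVA, and 3 higher and 2 lower without. Mapk14, which encodes p38 alpha, was lower (-0.58, SE 0.0513, adjusted p = 6.84e-06), as was the scarce Mapk13, which encodes p38 delta (-3.31, SE 0.274), and Mapk6, which encodes ERK3, was higher (0.63, SE 0.0528). Mapk13 passed the filter on low expression only through CtrV libraries. Of 6 tested MAP kinase kinases 1 was higher (Map2k1, 0.42) and 1 lower (Map2k3, an activator of p38, -0.34) after OVA, and the counts were the same in unpulsed cells. Of 17 tested MAP3 kinases 10 were higher and 1 was lower after OVA, and 7 were higher and 3 lower in unpulsed cells. After OVA they included Map3k8, the kinase that links LPS to ERK, at 0.72 (SE 0.0884, adjusted p = 7.53e-05), Map3k20 at 0.69 and Map3k9 at -1.83.

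Other phosphatases directed at MAP kinases had 8 of 8 genes tested, with 0 higher and 4 lower after OVA (median log2 fold change -0.45) and 1 higher and 4 lower in unpulsed cells (median -0.43). Those lower after OVA were Dusp9, Ptpn7, a tyrosine phosphatase of ERK and p38 in blood cells (-0.88, SE 0.0634), Ptprr, which also binds ERK (-2.22, SE 0.24), and Ptpn5 (-2.74, SE 0.327), which was named after its values were seen. After OVA, Ptpn5 was at 1.36 to 1.76 CPM in CtrV and at 0.105 to 0.322 CPM in EKO-labelled libraries. Ptpn5 and Dusp9 passed the filter on low expression only through CtrV libraries, so the counts and median of this list are not independent of the filter. The 4 genes not called after OVA lay between -0.03 and 0.70. Dusp9 belongs to the family described above, and the size of this list's median depends on counting it here. Of 14 tested genes listed as atypical dual-specificity phosphatases, which lack the domain that docks MAP kinases, 4 were higher and 1 was lower after OVA, and 4 were higher and 2 lower without. The OVA values were 0.34 for Dusp22, 0.25 for Dusp11 and -1.57 for Dusp18. Slingshot phosphatases, a separate group, were also in this list, and none of them was called after OVA.

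Genes that ERK induces had 11 of 17 tested, with 2 higher and 7 lower after OVA and a median log2 fold change of -0.64. Etv5, a transcription factor induced by ERK signaling, was at 98.9 to 118 CPM in CtrV and at 37.8 to 42.8 CPM in EKO-labelled libraries (log2 fold change -1.43, SE 0.0594, adjusted p = 4.28e-08). Ier3 was lower as well (-0.98, SE 0.0592), and Phlda1 was higher (1.45, SE 0.115). In unpulsed cells 1 gene of this list was higher and 8 were lower, with a median of -0.67.

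Of the inhibitors that ERK signaling induces or that restrain Ras, 11 of 16 were tested, and 3 were higher and 1 lower after OVA, with Spred1 at 0.52, Rasa2 at 0.34 and Rasa3 at -1.34, while 3 were higher and 4 lower in unpulsed cells. Kinases and scaffolds downstream of MAP kinases had 1 of 17 higher and 3 lower after OVA and 1 higher and 4 lower without, with OVA values of Mapkapk3, a target of p38, at 0.44 and the ERK targets Rps6ka2 and Rps6ka1 at -0.44 and -0.35. Factors of mRNA decay, which act on short-lived transcripts such as that of Dusp1, had 5 of 11 higher and 2 lower in both states, with OVA values of Zc3h12a (Regnase-1) at 1.18, Zfp36l1 at 0.58 and Zfp36l2 at -0.98. The share of genes called in these lists is to be read against the 47.0% called over all genes, and no list was tested as a set.

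**Figure D5:**
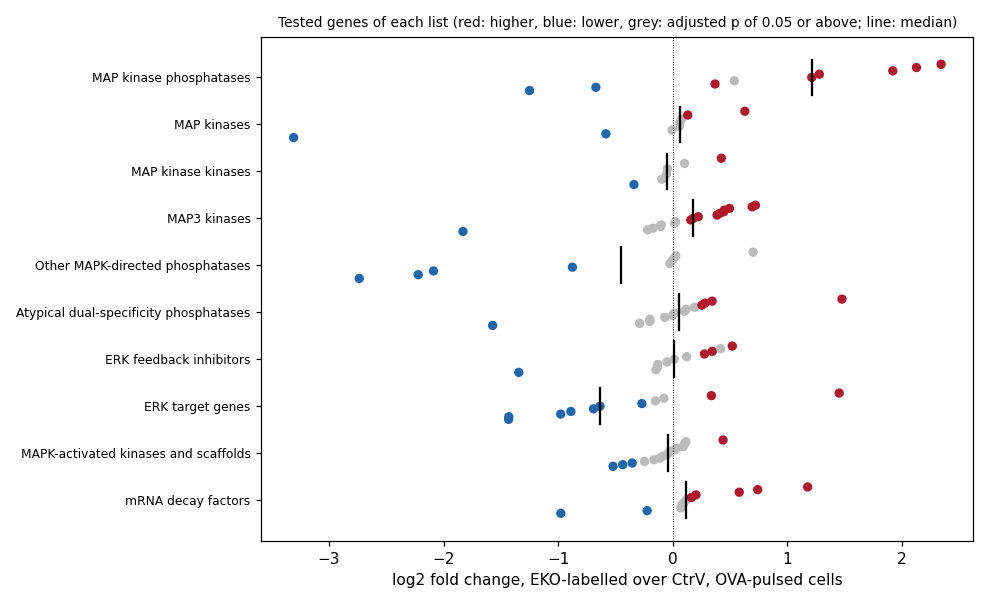
Log2 fold change of EKO-labelled over CtrV cells after OVA (horizontal axis) of every tested gene of each list (rows), in red for higher, blue for lower and gray for genes with an adjusted p of 0.05 or above, with a vertical line at the list's median. The median was 1.21 for the 9 phosphatases, -0.45 for the other phosphatases directed at MAP kinases and -0.64 for ERK target genes. Dusp9 (-2.09) is of the same family as the 9 but is counted among the other phosphatases. The medians of these 9 and of the other phosphatases depend on this placement.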

How the data were processed

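RNA sequencing covered CtrV and EKO-labelled Sp37A3 cells, unpulsed or OVA-pulsed, with 3 libraries in each of the 4 groups, taken from the sample labels. The deposited values are raw counts of reads per gene, made by the authors with STAR (mm10) and featureCounts on Ensembl gene models. The labels name a stranded library kit. Strand use in counting is not given in the sources used here, so overlapping genes on opposite strands can share counts.

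Tests used edgeR 4.0.16 (legacy quasi-likelihood fit) in R 4.3.3 with TMM scaling, group and replicate number as covariates and all 12 libraries. Genes were kept where log2 CPM exceeded 0 in 2 or more libraries, and p was adjusted by Benjamini-Hochberg over 14079 genes at 0.05. The standard error was the log2 fold change divided by the root of the F statistic. The replicate number is a covariate in the study's methods. Deviations of same-numbered libraries of the 2 lines correlated with r = 0.45, 0.295 and 0.298 after OVA and with 0.066, -0.009 and 0.271 without. Between pulsed and unpulsed libraries of the same number, r was 0.711, 0.357 and 0.424 in EKO-labelled cells and 0.089, 0.185 and 0.385 in CtrV cells. These values do not show whether same-numbered libraries were prepared together. Library pairs of a group differed beyond sampling noise (chi-square per degree of freedom at least 4.86). Nothing says whether replicates were separate cultures, so p-values measure the spread between these libraries.

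Gene names, positions and exon lengths came from GENCODE (GRCm38), not the authors' annotation, and promoters from RefSeq (GRCm38.p6). The members and lists were chosen with earlier results of these data known. Genes named are the members, Siglece, up to 3 called genes of smallest p per list, the 2 closest genes per member and the cell type markers, with Ptpn5 added after its values were seen. A planned description of the proteins was not made. Alternatives were DESeq2 1.42.0, limma 3.58.1 (voom), other scalings, filters, thresholds and subsets of libraries. The steps were checked on simulated data without a replicate effect, in which only genes above the level of Dusp2 and Dusp4 were changed. Counting error alone sets the level of 3 counts.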

Additional observations from a re-analysis of the deposited data

How the results depend on the processing

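The number of phosphatases called between the lines was 8 after OVA and 7 without, and stayed within 7 to 9 and 6 to 7 when single libraries were left out. It was 7 and 6 with DESeq2, without the replicate block and at an adjusted p under 0.01, 6 and 5 with an absolute log2 fold change of at least 1, and 8 and 8 without a filter on low counts. Dusp1, Dusp2, Dusp6, Dusp8 and Dusp16 were called in the same direction in both pulsing states under every alternative run, and so was Dusp7 (-0.67 and -0.61) except under the limit of 1 on the log2 value. Without the replicate block Dusp10 lost its calls (log2 fold change 0.38 and 0.45, adjusted p = 0.142 and 0.091), and no other member's call changed. Dusp10 was also not called with DESeq2 (adjusted p = 0.128 and 0.0716) or in fits of the 6 compared libraries (0.0552 and 0.0653). A minimum of 10 counts in every library removed Dusp4.

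Values that changed sign were all uncalled. For Dusp5 without OVA the value was -0.014 with upper-quartile scaling, -0.223 without both EKO-labelled libraries of replicate 1, -0.341 without all 4 libraries of replicate 1 and -0.268 to 0.263 when single libraries were left out. The interaction of Dusp16 was 0.002 with upper-quartile scaling and 0.033 without replicate 1. Without both EKO-labelled libraries of replicate 1 the interaction was -0.215 for Dusp2 and 0.025 for Dusp7, and without all of replicate 1 it was -0.147 for Dusp2. Leaving out single libraries gave interactions of -0.162 to 0.358 (Dusp1), -0.258 to 0.49 (Dusp2), -0.142 to 0.046 (Dusp7), -0.177 to 0.034 (Dusp10) and -0.071 to 0.053 (Dusp16). The causes were not tested. Over all genes, 6619 were called after OVA and 6537 without, and 1268 and 1241 with a log2 fold change of at least 1. Levels of Dusp2 and Dusp4 in CtrV cells were limited by depth.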
